A study of Homo sapiens with 2 samples.

Results

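The genes examined encode the MHC class II antigen presentation system: HLA-DRA, HLA-DRB1, HLA-DQA1, HLA-DQB1, HLA-DPA1 and HLA-DPB1, which encode the chains of the peptide-presenting molecules, HLA-DMA and HLA-DMB, which encode the peptide editor, CD74, which encodes the invariant chain, and CIITA, the coactivator of the whole set. Their KMT2D ChIP-seq peaks were taken as the listed peaks whose highest point lay in 1 of 3 windows drawn around the genes: the HLA class II block on chromosome 6 from 32.38 to 33.08 Mb, a CIITA window on chromosome 16 from 10.92 to 11.07 Mb and a CD74 window on chromosome 5 from 149.73 to 149.84 Mb, on hg19. This selected 43 peaks of the 24824 in the list, 21 in the HLA block, 10 in the CIITA window and 12 in the CD74 window. The data came from OCI-LY7, an established line of germinal centre B-cell-like (GCB) diffuse large B-cell lymphoma labelled wild type, fixed for 10 min in 1% formaldehyde. Chromatin was precipitated with an antibody raised against the N-terminus of KMT2D in 1 library, and 1 input library had no antibody. The peak list was the only measurement used. It describes the KMT2D library; values of the input were not analysed here, the sequencing depth is unknown, and no replicate spread could be estimated, so no p-value is given. Intervals below are exact 95% intervals for counting error over peaks, which are not independent replicates.

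KMT2D (MLL4) is a histone methyltransferase that places H3K4 methylation, mainly the mono- and dimethyl marks at enhancers, and its gene is recurrently inactivated in B-cell lymphoma. MHC class II molecules present peptides to CD4+ T cells and are made constitutively by B cells. Their genes share an upstream module, in which the X box is bound by the RFX complex and CREB, and the Y box, a reversed CCAAT element, by NF-Y. CIITA binds no DNA of its own and is recruited to this assembly, so that the level of CIITA sets the level of the class II genes. CD74 carries the same kind of module.

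The module is the sequence feature by which the class II genes and CD74 are known as a group. Stretches before the gene start are shown for orientation beside the peaks, whether or not its letters were found in them. RefSeq promoter sequences were matched by symbol for 8 of the 10 genes, all but HLA-DRA and CIITA. The stretches run from 130 to 11 bases before the gene start, 5′ to 3′ on the gene's strand, with positions on GRCh38.p14; they are reference sequence, not that of OCI-LY7, and were not used to place peaks, which are on hg19. Capitals mark CCAAT on either strand (ATTGG where reversed) and ACNGATG, letters from within the X box, a pattern chosen after these sequences had been read. The 2 HLA-DPA1 entries, in which neither pattern was found, are not shown.
HLA-DRB1 (chr6:32589859-32589978, - strand): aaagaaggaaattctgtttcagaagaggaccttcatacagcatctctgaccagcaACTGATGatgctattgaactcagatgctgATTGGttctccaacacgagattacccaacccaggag
HLA-DQB1 (chr6:32666668-32666787, - strand): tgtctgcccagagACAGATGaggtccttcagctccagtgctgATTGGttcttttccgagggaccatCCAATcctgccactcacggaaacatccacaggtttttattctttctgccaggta
HLA-DMA (chr6:32953108-32953227, - strand): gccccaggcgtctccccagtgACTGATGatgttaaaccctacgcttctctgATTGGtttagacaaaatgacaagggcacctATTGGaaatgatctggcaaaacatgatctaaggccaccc
HLA-DMB (chr6:32941039-32941158, - strand): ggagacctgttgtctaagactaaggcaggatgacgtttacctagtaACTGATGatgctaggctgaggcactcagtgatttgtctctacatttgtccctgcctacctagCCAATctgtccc
HLA-DQA1 (chr6:32637276-32637395, + strand): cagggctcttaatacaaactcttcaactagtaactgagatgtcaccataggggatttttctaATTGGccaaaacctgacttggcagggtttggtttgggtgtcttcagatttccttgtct
HLA-DPB1 (chr6:33075860-33075979, + strand): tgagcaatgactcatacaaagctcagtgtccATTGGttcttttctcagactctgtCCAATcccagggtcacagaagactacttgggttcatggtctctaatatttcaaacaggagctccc
CD74 (chr5:150412921-150413040, - strand): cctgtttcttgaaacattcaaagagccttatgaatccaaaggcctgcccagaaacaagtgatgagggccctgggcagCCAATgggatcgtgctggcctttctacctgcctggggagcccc
The reversed CCAAT element of the Y box lay downstream of the X-like pattern in 3 of these stretches, with 22 bases between them in HLA-DRB1, 22 in HLA-DQB1 and 23 in HLA-DMA. In HLA-DMB the pattern was followed by CCAAT in the forward direction only. CCAAT on either strand was found in the full promoter, 250 bases before to 50 after the start, of 7 of the 8 genes, all but HLA-DPA1, and in 34.6% of all 35116 promoters of the table. The longer Y-box form GATTGG was found on either strand in HLA-DRB1, HLA-DQB1, HLA-DMA, HLA-DMB and HLA-DPB1, 5 of 8, against 15.1% of all promoters. In HLA-DMB and HLA-DPB1 it lay only on the opposite strand, as CCAATC, which is not the Y-box direction. GATTGG overlaps CCAAT on the opposite strand and is no separate count. ACNGATG, chosen from these same sequences so that its count supports nothing, was found in 5 of 8, against 7.65% of all promoters: on the gene's strand in HLA-DRB1, HLA-DQB1, HLA-DMA and HLA-DMB, at 75, 117, 109 and 84 bases before the start, and on the opposite strand in CD74, at 209 bases, outside the stretch shown. The stricter X1-box form CCTAGNNAC was found in HLA-DMB alone, against 3.08%, and its shorter form CTAGNNAC in HLA-DMB and HLA-DQA1, against 7.82%. The X2-type letters TGACG were present in 4 of 8 (24.6% of all promoters), GTTGC, RFX-type letters, in 3 of 8 (33.6%), the ETS-type letters GAGGAA in 6 of 8 (27.9%) and the BCL6-type letters TTCCTNGAA in 0 of 8 (1.56%). All motifs were searched on both strands. Among other genes of the block, GATTGG was found for 5 of 5 further class II genes (HLA-DRB5, HLA-DQA2, HLA-DQB2, HLA-DOA and HLA-DOB) and for 0 of 6 other genes, namely TAP1, TAP2, PSMB8, PSMB9, BRD2 and BTNL2. This was the widest split among the patterns searched. With 15.1% of all promoters holding GATTGG, 0 of 6 is near the background. HLA-DRB5, HLA-DQA2 and HLA-DQB2 are close relatives of members, so the 5 of 5 is no independent count. The strand of the match was not given for these genes. In the same order, CCAAT was found for 5 of 5 and 3 of 6, ACNGATG for 1 of 5 and 1 of 6, and TGACG for 1 of 5 and 3 of 6. Both CCTAGNNAC and CTAGNNAC were found for 1 of 5 and 0 of 6, GTTGC and GAGGAA each for 3 of 5 and 2 of 6, and TTCCTNGAA for none of either. These matches are descriptions of letters, not binding sites.

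All 3 windows held KMT2D peaks more densely than the rest of the genome, and the tallest peak of the set lay in the CIITA window. The HLA block held 30 peaks per Mb (18.6 to 45.9), the CIITA window 66.7 (32.0 to 123) and the CD74 window 109 (56.4 to 191). This order held with peaks under 500 bp apart merged, at 25.7, 66.7 and 81.8, and with any overlap counted, which changed no density. It did not hold once low or low-scoring peaks were left out. The lowest listed height differed, at 16 on chromosome 5, 17 on chromosome 6 and 22 on chromosome 16. At a common minimum height of 26 the density was 21.4 in the HLA block. It was then nearly equal in the CIITA window, at 66.7 (32.0 to 123), and the CD74 window, at 63.6 (25.6 to 131). Among the highest-scoring 50% of peaks they were 12.9, 46.7 and 27.3, so the CIITA window then had more peaks per Mb than the CD74 window. The minimum height left 19789 and the score limit 12386 of the 24772 peaks used. The genome density below is from all of them and is no background for these settings. The rest of chromosomes 1 to 22 and X held 8.44 peaks per Mb, which gave ratios of 3.55 (2.20 to 5.44), 7.90 (3.79 to 14.5) and 12.9 (6.68 to 22.6). Against the rest of their own chromosomes, with 8.09, 12.7 and 6.24 peaks per Mb on chromosomes 6, 16 and 5, the ratios were 3.71 (2.29 to 5.69), 5.25 (2.51 to 9.69) and 17.5 (9.01 to 30.7). The windows were drawn around genes, whereas the rest of the genome includes stretches without genes. Fixed windows of the same lengths were laid end to end along each chromosome. Of those of 700 kb, 6.71% held at least as many peaks as the HLA block. The share was 2.06% of 150 kb windows for CIITA and 0.53% of 110 kb windows for CD74. Fixed windows can split a group of peaks, so these shares may be lower than for freely placed ones. Bases inside peaks made up 2.63% of the HLA block, 4.89% of the CIITA window and 6.80% of the CD74 window, against 0.584% over all chromosomes used.

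As a group these peaks had the same median height as the list. The median was 39 in the authors' units (28 to 57), and the whole list also had a median of 39 (39 to 40). Heights of the CIITA peaks ran from 29 to 120 with a median of 60 (31 to 93), those of the HLA block from 20 to 90 with a median of 33 (25 to 58), and those of the CD74 window from 17 to 110 with a median of 27 (20 to 57). The 3 ranges overlapped widely, as did the intervals of the medians. The median over all peaks of chromosome 16 was 44, that of chromosome 6 was 37 and that of chromosome 5 was 36, and the lowest listed heights differed as given above. A height of 59 or more placed a peak among the tallest 25% of the list, which with ties held 25.9% of all peaks. That level was reached by 5 of 10 CIITA peaks (50%; 18.7 to 81.3%), 5 of 21 HLA peaks (23.8%; 8.22 to 47.2%) and 2 of 12 CD74 peaks (16.7%; 2.09 to 48.4%), or 12 of 43 in all (27.9%; 15.3 to 43.7%). The interval of the pooled share and that of each window included 25.9%. A height of 80 or more marked the tallest 10%, with ties 10.4% of all peaks, and was reached by 7 of the 43 (16.3%; 6.81 to 30.7%).

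**Figure D1:**
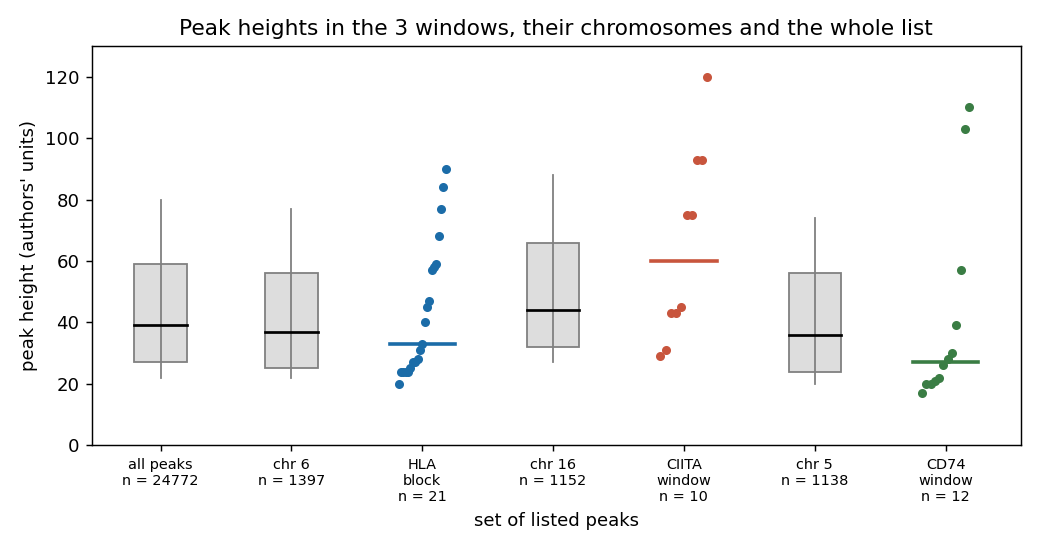
Heights of listed KMT2D peaks in the authors' units on a linear axis. Points are single peaks of the 3 windows with a line at their median, and grey boxes show the interquartile range, median and 10th to 90th percentile range of the whole list and of each window's chromosome; CIITA peaks reach 120, and most CD74 peaks lie below the median of chromosome 5, with 2 above 100.

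CIITA, the coactivator that class II transcription depends on, lay in a window whose peaks formed a pair of groups. The first held 7 peaks over 27.6 kb, chr16:10962217-10989832, and the second 3 peaks over 7.8 kb, chr16:11036092-11043874, with no listed peak in the 46.3 kb between them. In order along the chromosome, the first group had heights of 75, 75, 29, 43, 31, 93 and 120. Height was thus greatest at its end, in a peak of 971 bp at chr16:10988861-10989832, with a significance value of -92.1, read as a base-10 logarithm. Its height of 120 was 3.08 times the median of the list and was reached by 1.70% of all peaks and by 2.69% of those on chromosome 16. The neighbouring peak at chr16:10985244-10986203 had a height of 93 and a width of 959 bp. The peak with the greatest width in this window, 1371 bp at chr16:10970510-10971881, had a height of 75, the same as the peak of 1040 bp at chr16:10962217-10963257. The 3 peaks of the second group had heights of 45, 93 and 43. In gene order, CIITA stands between TVP23A and DEXI, which is followed by CLEC16A, so a peak in this window need not belong to CIITA. Peaks close to each other were joined into clusters by a fixed distance, given with the methods. Clusters of 7 or more made up 6.25% of the 4962 clusters of 2 or more in the list. Each of the equally long segments on either side held 1 peak, at 6.67 peaks per Mb (0.169 to 37.1), and the window held 10.0 times as many (1.42 to 434).

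CD74 encodes the invariant chain, which guides class II molecules to the endosome and blocks their groove until HLA-DM acts. Its window mixed 2 tall peaks with many low ones. Its density was nearly equal to that of the CIITA window at a minimum height of 26. Among the highest-scoring 50% of peaks it was lower. A group of 8 peaks spanned 14.7 kb at chr5:149778285-149793024, with heights along the chromosome of 28, 20, 22, 20, 17, 39, 21 and 103. Only the last stood above the median of the list. It covered 1247 bp at chr5:149791777-149793024, had a significance value of -77.4, and its height was reached by 3.53% of all peaks and 2.64% of those on chromosome 5. The other 7 were 17 to 39 high, and 1 of them, at chr5:149781608-149781772 with a height of 17, was the lowest of the 43. Clusters of 8 or more peaks made up 4.29% of all clusters. The tallest peak of the window, with a height of 110 and a width of 1040 bp, lay 35.8 kb past this group at chr5:149828825-149829865 with a significance value of -90.2, and 2.57% of all peaks reached its height. It opened a cluster of 4 peaks, of which those with heights of 30 and 26 also lay in the window and 1 lay past its border. At the other end, a lone peak of 1269 bp at chr5:149736747-149738016 had a height of 57. In gene order, CD74 is flanked by TCOF1, which encodes a nucleolar factor, and RPS14, which encodes a ribosomal protein, and the outer peaks cannot be assigned to CD74 rather than to these genes. The segment of equal length before the window held 0 peaks, and the one after it held 6, at 54.5 peaks per Mb (20 to 119). The ratio of the window to the latter was 2.00 (0.695 to 6.49), an interval that includes equal density.

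**Figure D2:**
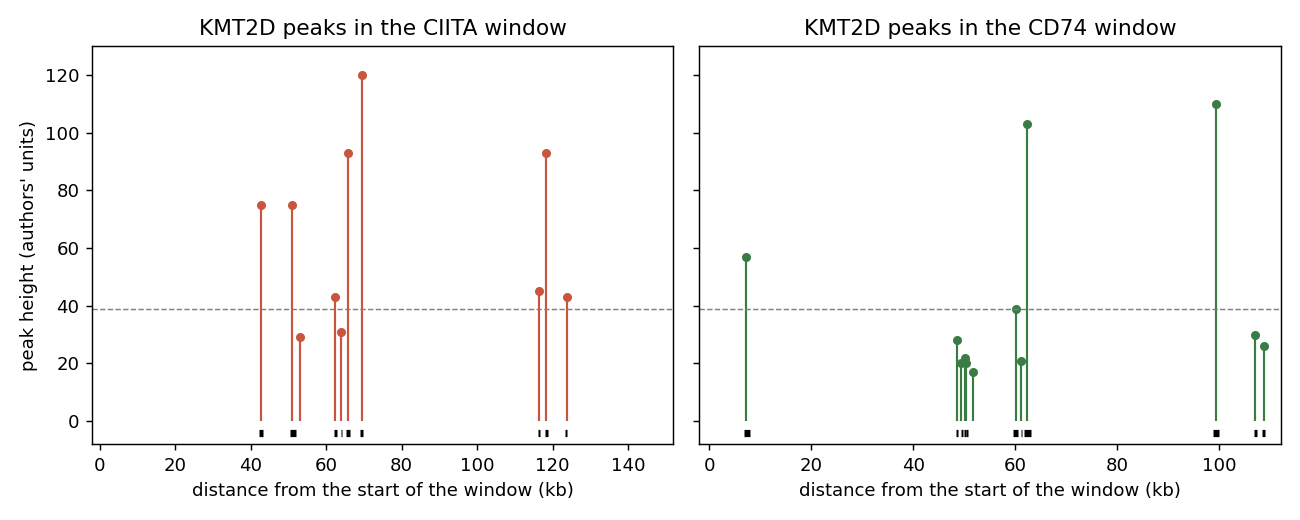
Peak height in the authors' units against distance from the start of the CIITA window (left) and the CD74 window (right) in kb, with 1 stem per peak at its highest point. Black bars below show peak extent to scale, and the dashed line is the list's median height of 39; 8 CIITA peaks lie above it, and in the CD74 window 3 do.

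Within the HLA block the peaks were unevenly placed, and fewer lay near the genes of the presenting molecules than near those of HLA-DM. No count near other genes of the genome was made, so these counts are compared only with each other. The positions given for the genes are rounded to 10 kb, and a peak was counted as near a gene when its highest point lay within 25 kb. Whether such a peak lies at the gene's start or in its body was not resolved. HLA-DRA, which encodes the DR alpha chain, had 1 peak near its position at 32.41 Mb: 207 bp at chr6:32407549-32407756 with a height of 24 and a significance value of -16.1, near the weakest value listed, -15. HLA-DRB1, which encodes the DR beta chain, had 0 peaks near 32.55 Mb. It lay in the longest stretch of the block without a listed peak, 182.5 kb from base 32407756 to 32590269. HLA-DQA1, which encodes the DQ alpha chain, had 2 near 32.61 Mb, with heights of 20 and 45, and the taller, at chr6:32627629-32627928, was also the 1 peak near HLA-DQB1, which encodes the DQ beta chain, at 32.63 Mb. HLA-DPA1 and HLA-DPB1, the DP chain genes between 33.03 and 33.06 Mb, shared 1 peak of 508 bp at chr6:33041194-33041702 with a height of 28. The counts for HLA-DQA1 depended on the distance, since 0 peaks lay within 10 kb of its position.

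HLA-DM, which removes the invariant chain fragment and selects peptides, had the most peaks near its genes. Its genes, like the DP genes, were counted together over a range of positions. The stretch counted was thus longer than for each DR or DQ gene. Near HLA-DMB and HLA-DMA, at 32.90 to 32.92 Mb, 7 peaks were listed, and 5 lay within 10 kb. Those 5 formed a cluster of 12.6 kb at chr6:32908714-32921288 with heights of 58, 57, 31, 24 and 47 along the chromosome. Its tallest peak covered 1001 bp at chr6:32908714-32909715 with a significance value of -44.9, and the next, 839 bp at chr6:32911894-32912733, reached 57. The other 2 lay beyond HLA-DMA, 15.2 and 19.9 kb from the given positions, and included the widest peak of the set. That peak measured 4930 bp at chr6:32935809-32940739, with a height of 84 and its highest point 82.5% of the way along. Itself included, 7 peaks of the list, or 0.0283%, were at least as wide. BRD2, which encodes a bromodomain protein, is the next protein-coding gene after HLA-DMA in the RefSeq order, followed by HLA-DOA, and the wide peak was not assigned to a gene here.

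The stretch between the DQ and DM genes held the tallest peak of the block, at 90, and 4 of its 5 tallest; the second, at 84, was the wide peak beyond HLA-DMA. In gene order this stretch holds HLA-DQA2, HLA-DQB2, HLA-DOB, TAP2, PSMB8, TAP1 and PSMB9, so it combines further class II genes with the peptide transporter and immunoproteasome genes of the class I pathway. From 32.655 to 32.875 Mb it held 8 peaks with heights of 27, 24, 59, 77, 27, 90, 33 and 68 along the chromosome, and 4 of these were 59 high or more. The highest was 1702 bp wide at chr6:32821129-32822831, with a significance value of -65.5. A peak of 2386 bp at chr6:32811253-32813639 had a height of 77, and both belonged to a cluster of 5 peaks over 29.3 kb. A further peak at chr6:32861732-32863042 stood alone with a height of 68. The 2 peaks over 2000 bp in the HLA block, 9.52% of its 21 (1.17 to 30.4%), were the wide peak beyond HLA-DMA and the one at chr6:32811253-32813639; 2.22% of all peaks were that wide.

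Divided at 25 kb beyond the given positions, with borders drawn after the peaks had been seen, the block gave unequal densities. The DR and DQ stretch of 275 kb held 4 peaks, or 14.5 per Mb (3.96 to 37.2), with heights of 20 to 45 and 0.328% of its bases inside peaks. The stretch between DQ and DM held 36.4 per Mb (15.7 to 71.7), with 3.56% of its bases covered. The 70 kb around DM held 100 peaks per Mb (40.2 to 206), with 12.2% covered. The last 2 stretches, from there to DP and around DP, held 1 peak each, at 16.7 (0.422 to 92.9) and 13.3 per Mb (0.338 to 74.3). Their intervals and that of the DR and DQ stretch included 8.44 per Mb, the density of the rest of the genome. Their densities were below that of DM and above 8.44, but so few peaks cannot place them above or below the genome. The DM interval lay above that of the DR and DQ stretch, and the other intervals overlapped. The DM count includes the 2 peaks beyond HLA-DMA. With borders drawn from these same data, the separation is a description and supports nothing further. No listed peak fell in 182.5 kb around HLA-DRB1 and in 137.1 kb beyond HLA-DQB1, which together made up 45.7% of the block. Of the 24749 gaps between neighbouring peaks in the list, 3086 were at least 182.5 kb long, and 3920, or 15.8%, at least 137.1 kb. HLA-DRB1 has close relatives in HLA-DRB5 and other DRB copies, and HLA-DQA1 and HLA-DQB1 in HLA-DQA2 and HLA-DQB2. How the authors treated reads that match several copies is not given in the sources used here, so these positions are uncertain, and the lack of a listed peak does not show that KMT2D was absent.

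**Figure D3:**
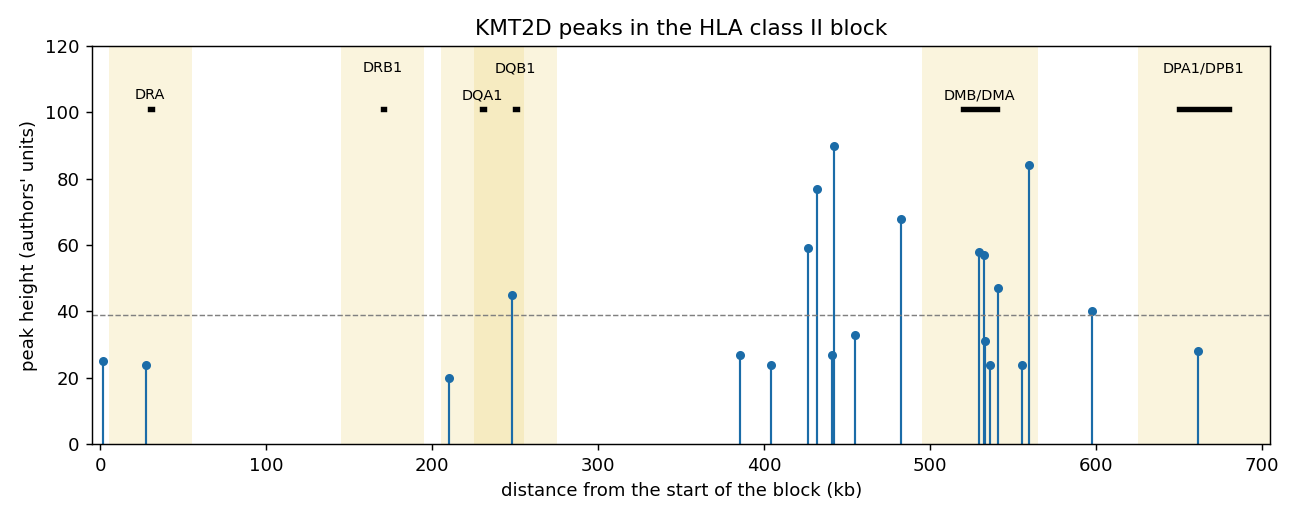
Peak height in the authors' units against distance from the start of the HLA class II block in kb, with 1 stem per peak. Black bars at the top mark the rounded gene positions, shading marks 25 kb around them, and the dashed line is the list's median height of 39. Fewer stems stand at DR, DQ and DP, where none exceeds 45, than between DQ and DM and around DM.

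The block was set beside its surroundings on chromosome 6. The 700 kb before it held 30 peaks with a median height of 49, and the 700 kb after it held 41 with a median of 41, against 21 with a median of 33 in the block. The ratio of the block to the segment before it was 0.7 (0.381 to 1.26), and to the segment after it 0.512 (0.288 to 0.887). Only the second interval excluded equal numbers, but both ignore the clustering of peaks, so no difference is concluded. In bins of 100 kb from the start of the block, the 7 bins held 2, 0, 2, 1, 7, 8 and 1 peaks. The median of 20 flanking bins was 4 peaks, 2 of them were empty, and the fullest held 11, while 69.3% of all 30316 such bins of the genome were empty. Low bin counts were not confined to the block, since the 2 bins before it held 1 and 0 peaks.

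**Figure D4:**
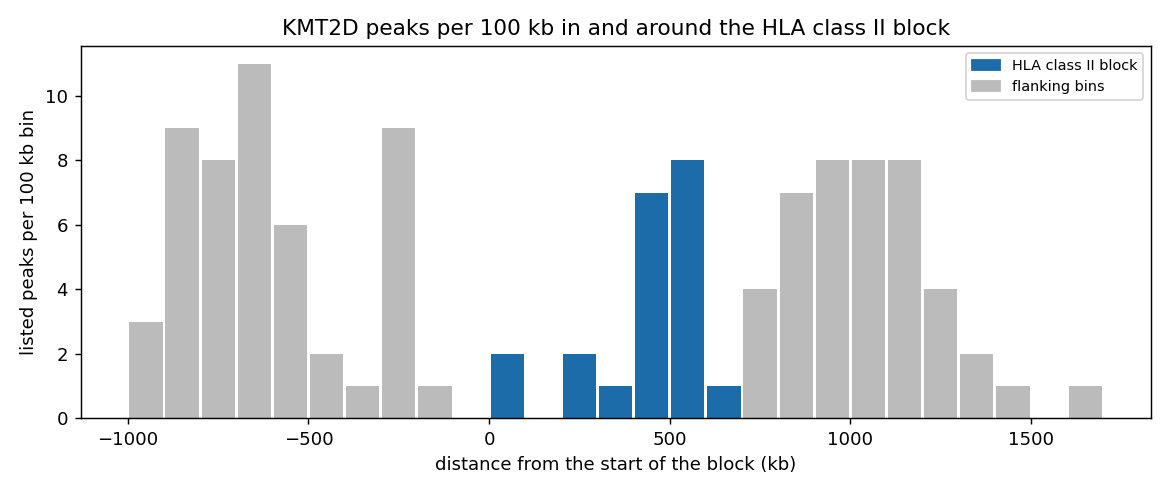
Number of listed KMT2D peaks per 100 kb bin on chromosome 6 against distance from the start of the HLA class II block in kb, with block bins in blue and flanking bins in grey. The block's bins hold 0 to 8 peaks and its flanking bins 0 to 11.

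Of the 43 peaks, 33 (76.7%; 61.4 to 88.2%) lay in clusters of 2 or more, against 63.4% of all peaks. All 10 CIITA peaks and 11 of 12 CD74 peaks were clustered, and 12 of 21 in the HLA block (57.1%; 34.0 to 78.2%). The median gap between neighbouring peaks was 2.7 kb in the CIITA window, 0.9 kb in the CD74 window and 16.3 kb in the HLA block, against 19.3 kb in the list. Width followed height as in the whole list. The 4 peaks of up to 200 bp (9.30%, against 21% of all peaks) had heights of 17 to 24, the 24 peaks of over 200 and up to 800 bp had a median height of 28.5, and the 13 peaks of over 800 and up to 2000 bp had a median of 75, from 39 to 120. For all peaks of these width classes the median heights were 24, 35 and 63. The peaks nearest the window borders were low at the HLA borders: 25 just inside and 32 just outside the first border, and 28 inside and 22 outside the second. At CIITA these were 75 inside and 59 outside, then 43 inside and 32 outside. At CD74 they were 57 inside and 79 outside, then 26 inside and 74 outside, where the outer peak at chr5:149840624-149841372 lay 1.0 kb past the border and belonged to the same cluster of 4 as the tallest peak of the window.

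**Figure D5:**
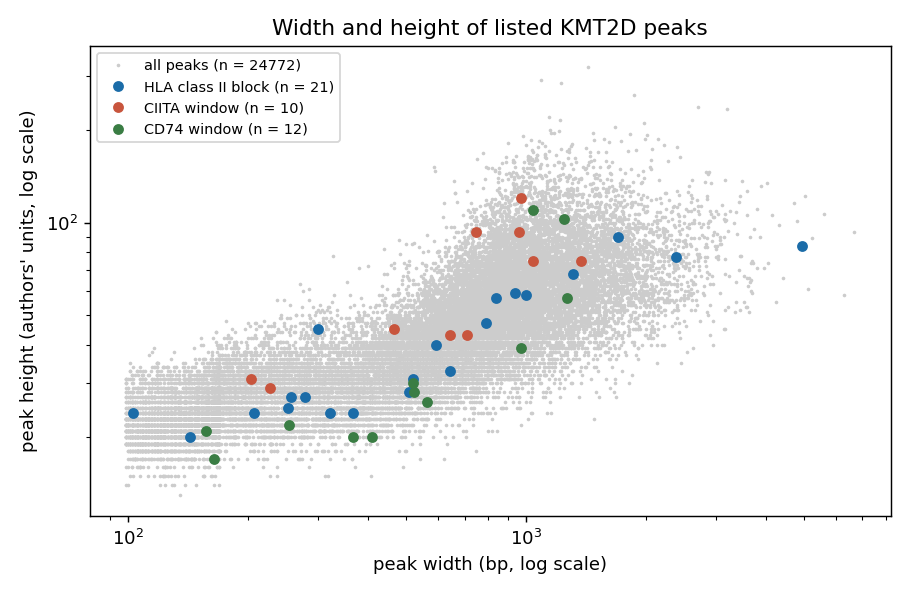
Height in the authors' units against width in bp of each listed KMT2D peak, both on log scales, with all 24772 peaks used in grey and the peaks of the 3 windows in colour. The coloured points lie within the grey cloud, and the HLA peak of 4930 bp is at its right edge.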

How the data were processed

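KMT2D ChIP-seq was measured in 1 OCI-LY7 library beside 1 input. The authors deposited 1 peak list of 11 columns without a header, whose meaning was read from the values. Column 7 is the deposited signal, a whole-number height whose normalization is not stated. Deposited scores are a positive score and a negative significance value read as a base-10 logarithm, in which 30 peaks are listed at minus infinity. The deposited percent column gives the highest point's place within the peak. Per the submitters' processing notes, CASAVA 1.8.2 and hg19 were used; no aligner, peak caller or threshold is named in the sources used here, nor how the input was used. Depth is unknown.

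The 24772 peaks of chromosomes 1 to 22 and X entered the work. Peak density used the span from first to last peak of each chromosome. Peaks at most 12.5 kb apart were joined into clusters. Intervals at 95% are exact Poisson, conditional, binomial or order-statistic ones; the functions were tested on simulated data. All 10 genes were named, with the tallest peaks and the longest gaps. The windows, genes and lists were chosen with earlier results of these data known. Gene order and promoters came from RefSeq (GRCh38.p14). Of the 18 other pathway genes listed, 17 matched a promoter. No hg19 annotation was used, so their peaks were not analysed here. Alternatives were the highest-scoring 50% of peaks, merging under 500 bp, a minimum height of 26, overlap in place of the highest point, other clustering distances, other height limits and other distances to genes. Software was scipy 1.17.1, pandas 2.3.3, numpy 2.4.6 and matplotlib 3.10.9 under Python 3.11.15.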

Additional observations from a re-analysis of the deposited data

How the results depend on the processing

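No paired analysis was possible because there was 1 ChIP library. With no test, a density counts as moved when it changes by over 1.5 times, and a median or share when it leaves its own interval. Of 28 alternative values for densities, medians and shares, 23 stayed and 5 moved. The 23 are no measure of stability, because several settings left the counted peaks unchanged. Counting any overlap changed no value, and merging changed none in the CIITA window. The minimum height of 26 could not act there, where the lowest peak was 29. For the 3 chromosomes that hold the windows the height limit was again 59. The tallest 10% held 16.3% of the 43 peaks and 10.4% of all, a different quantity from the main share of 27.9%. With the 50% of peaks that scored highest, there were 12.9 peaks per Mb and a median height of 59 in the HLA block, and 27.3 peaks per Mb and a median height of 103 over 3 peaks in the CD74 window. A minimum height of 26 gave 63.6 peaks per Mb in the CD74 window. The CIITA window had 46.7 and 66.7 peaks per Mb in these settings. The order of the CIITA and CD74 windows by density thus turned in the first, and in the second they were nearly equal. Their intervals overlapped in each. Fewer peaks and higher medians follow from removing low peaks. Of 12 counts near gene positions at 10 or 50 kb, 4 moved: HLA-DQA1 had 0 peaks within 10 kb, and within 50 kb HLA-DRA had 2, HLA-DRB1 had 1 and HLA-DQB1 had 2. The unknown depth limits what an absent peak can show.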
